A study of Homo sapiens with 9 samples.

Results

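Caspases, their activating platform and their inhibitors were followed in Y79 human retinoblastoma cells after exposure to gold nanoparticles. The set held 8 genes, CASP8, CASP9, CASP6, APAF1, XIAP, BIRC2, BIRC3 and CFLAR. Members were the probe sets annotated to exactly 1 of these symbols, which gave 34 of the 49293 probe sets tested and 7 of 18132 genes. CASP8 had 8 probe sets, CASP9 had 2, CASP6 had 1, APAF1 had 4, XIAP and BIRC2 had 5 each, and CFLAR had 9. BIRC3 was not analysed here, because the annotation used lists no probe set with that symbol alone.

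The cells fell into 3 groups of 3 Affymetrix PrimeView arrays. The first received gold nanoparticles carrying an HDM2 peptide (GNPs-HDM2), the second received bare gold nanoparticles (GNPs), and the third was untreated (Control). HDM2 is the human form of MDM2, the ubiquitin ligase that holds p53 down. All groups were the same line grown in RPMI medium, which some labels spell Y97, and no genetic change was made to any of them. Y79 is 1 established line, so the groups model 1 tumour. The labels give neither the dose, the exposure time nor the peptide's sequence. They also do not say whether arrays of a group came from separate cultures, and p-values then cover the spread between these samples alone, which may be technical.

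Caspases are proteases that take a cell apart in apoptosis. CASP8 is the initiator recruited to death receptors through FADD, and CFLAR (c-FLIP) is its catalytically inactive relative that competes for the same platform. CASP9 is the initiator of the mitochondrial route, activated on the apoptosome that APAF1 builds once cytochrome c leaves mitochondria. CASP6 is an executioner known for cleaving lamin A. XIAP binds and blocks CASP9 and other caspases directly, while BIRC2 (cIAP1) and BIRC3 (cIAP2) are ubiquitin ligases of the TNF receptor complex. CASP8 has been described as silenced by methylation in retinoblastoma cells. Caspase activation itself takes place after translation, which RNA arrays do not see.

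On GRCh38.p14 (RefSeq), CASP8 lies at chr2:201233463-201287711 and CFLAR at chr2:201116164-201176687, with 56775 bases between them. BIRC2 lies at chr11:102347214-102378670 and BIRC3 at chr11:102317484-102339403, with 7810 bases between them. CASP9 lies at chr1:15491401-15524912, CASP6 at chr4:109664388-109709767, APAF1 at chr12:98645290-98735433 and XIAP at chrX:123859708-123913972. All 8 members matched the RefSeq promoter table. The 250 bases before the first listed start are shown for the 2 genes whose means rose and the 2 whose means fell with the smallest p in GNPs-HDM2 against Control, so that the promoters behind opposite changes can be set side by side. They run 5′ to 3′ on the plus strand, and capitals mark CpG dinucleotides, the sites of DNA methylation.
CASP8, chr2:201233213-201233462: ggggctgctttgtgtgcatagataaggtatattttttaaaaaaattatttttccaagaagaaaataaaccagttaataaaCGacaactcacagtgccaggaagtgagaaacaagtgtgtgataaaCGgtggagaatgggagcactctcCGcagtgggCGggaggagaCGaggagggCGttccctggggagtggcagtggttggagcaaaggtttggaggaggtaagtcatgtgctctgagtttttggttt
APAF1, chr12:98645040-98645289: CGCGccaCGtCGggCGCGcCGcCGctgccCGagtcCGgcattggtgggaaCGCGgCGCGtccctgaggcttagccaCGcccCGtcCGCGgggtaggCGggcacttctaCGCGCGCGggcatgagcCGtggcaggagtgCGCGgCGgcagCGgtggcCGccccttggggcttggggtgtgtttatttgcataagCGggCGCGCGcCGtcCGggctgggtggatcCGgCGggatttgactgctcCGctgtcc
XIAP, chrX:123859458-123859707: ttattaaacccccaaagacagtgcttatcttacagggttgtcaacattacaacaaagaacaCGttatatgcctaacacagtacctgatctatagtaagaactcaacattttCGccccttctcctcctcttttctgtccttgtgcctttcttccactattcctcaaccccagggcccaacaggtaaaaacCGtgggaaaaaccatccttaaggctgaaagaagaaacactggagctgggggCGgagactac
BIRC2, chr11:102346964-102347213: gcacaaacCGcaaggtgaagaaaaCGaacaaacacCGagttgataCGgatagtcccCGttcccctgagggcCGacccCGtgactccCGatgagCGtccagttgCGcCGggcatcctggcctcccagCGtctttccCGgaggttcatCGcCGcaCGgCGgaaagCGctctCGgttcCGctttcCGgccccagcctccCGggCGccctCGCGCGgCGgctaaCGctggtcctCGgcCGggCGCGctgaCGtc

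The CASP8 window held 6 CpGs, more than 38.1% of 35116 such windows in the table, whose median was 11. The APAF1 window held 38 CpGs, more than 96.7% of windows. The XIAP window held 4 CpGs, more than 29.3% of windows, although windows at its other listed starts held 23 and 12. The BIRC2 window held 33 CpGs, more than 91.9% of windows. CpG-rich and CpG-poor windows thus stood in both the rising and the falling pair. The GC box GGGCGG, on either strand, was found once each in the CASP8, APAF1 and XIAP windows and not in that of BIRC2, against 42.6% of all windows. The E2F motifs TTTCCCGC and TTTGGCGC, on either strand, matched none of the 4, against 1.9% of all windows. A p53 half-site was likewise not matched in these 4 windows, against 5.6% of all windows. The pattern was RRRCWWGYYY, with R for A or G, W for A or T and Y for C or T. The window at another listed start of CASP8 held 1 match, and so did 1 of the CASP9 windows.

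The deposited values are log2 differences from a baseline of each probe set, so 0 is that baseline and no absolute level is given. The stored number format left a trace of the baseline level, by which probe sets were put in classes of 2 to 4, 4 to 8 or 8 to 16 on the log2 scale. Of the members, 16 were in the lowest class, 13 in the middle class and 5 in the highest. CASP8 had 7 of its 8 probe sets and CFLAR 6 of its 9 in the lowest class. XIAP with 3 and BIRC2 with 2 were the members that reached the highest class. Both CASP9 probe sets and that of CASP6 were in the middle class, and APAF1 was split 2 and 2 between the lower classes.

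A shift with level moved with the conjugate. In GNPs-HDM2 minus Control the median probe set of the lowest class stood at 0.48, that of the middle class at 0.12 and that of the highest at -1.16. The array's 23 background probe sets rose by 0.52, about as much as the lowest class. They averaged 0.52 ± 0.12 on GNPs-HDM2 arrays and -0.01 ± 0.04 on Control arrays (SD, n = 3 each). The spiked hybridization controls, which do not come from the cells, averaged 1.68 ± 0.30 on GNPs-HDM2 arrays and -0.38 ± 0.05 on Control arrays (SD, n = 3 each). Probe sets for 18S ribosomal RNA averaged -2.38 in GNPs-HDM2 and -0.26 in Control, and the GAPDH 3′ minus 5′ difference averaged 0.54 in GNPs-HDM2 and 0.04 in Control. The part of these shifts in the results below was not tested, but the main member results are also given after arrays were centred on their median within each level class. The SD over probe sets was 1.25, 1.49 and 0.64 on GNPs-HDM2 replicates 1, 2 and 3, 0.28 to 0.32 on GNPs arrays and 0.24 to 0.36 on Control arrays. Control replicate 3 correlated with GNPs arrays at r = 0.47 to 0.61 across probe sets, and with the other Control arrays at -0.11 to 0.15. Of 12 measured photoreceptor and retinoblastoma markers, 4 reached the highest level class, MYCN, NRL, OTX2 and PDE6H. None of 7 fibroblast markers did, and CD3E was the 1 of 6 measured blood cell markers that did. The middle class was the highest reached by 5 photoreceptor and retinoblastoma, 6 fibroblast and 1 blood cell markers, so the lists were not cleanly separated by level.

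In cells given the conjugate, the gene means of the death receptor initiator CASP8, of its inhibitor CFLAR and of the apoptosome builder APAF1 rose against untreated cells, while those of the inhibitors XIAP and BIRC2 and of the executioner CASP6 fell. The calls on CFLAR, APAF1 and BIRC2 were lost after centring by level (adjusted p = 0.58, 0.0526 and 0.0554). Of the 34 member probe sets, 11 rose, 6 fell and 17 did not pass (limma, adjusted p under 0.05 over all probe sets tested). In this comparison 48.7% of all probe sets passed, with 24.9% higher and 23.7% lower, so the members' share of 50% was close to that of the whole array. At an unadjusted p under 0.05, 19 members passed, but the share of all probe sets at that threshold was not counted. Without Control replicate 2 or 3 the rises numbered 6, and the falls numbered 2 without GNPs-HDM2 replicate 1 and 3 without Control replicate 2. The members' median difference was 0.39, against 0.23 over all probe sets tested. On 13 member probe sets the 3 GNPs-HDM2 arrays lay above all 3 Control arrays and on 5 below them, against 31.4% and 22.5% of all probe sets.

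By level class, 8 of 16 members of the lowest class rose and none fell, against 33.3% and 0.613% of all probe sets of that class. In the highest class 4 of 5 members fell and none rose, against 61.8% and 7.21%. In the middle class 3 of 13 rose and 2 fell, against 26.9% and 23%. After centring within classes 6 members stood higher and 5 lower, against 18.3% and 19.1% of all probe sets, and the members' median was 0.07 against 0.02.

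**Figure D1:**
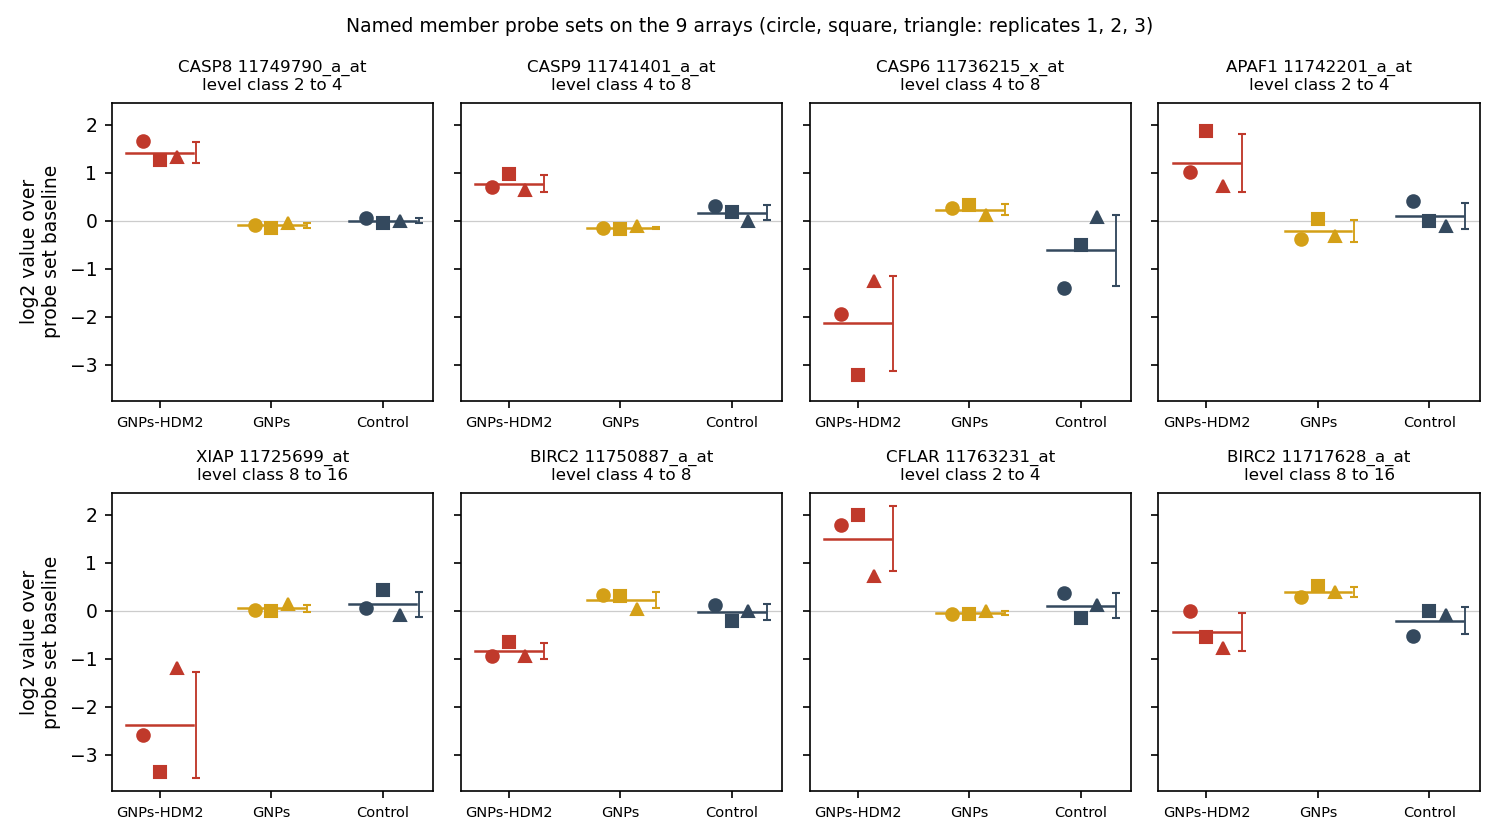
Log2 value over the probe set's baseline (vertical axis) on each of the 9 arrays for 8 named probe sets. Points are arrays, horizontal lines are group means and bars are SD (n = 3). CASP8, CASP9, APAF1 and CFLAR sit higher on the GNPs-HDM2 arrays than on Control arrays, the named XIAP and BIRC2 11750887_a_at sets sit lower, and the CASP6 groups overlap.

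CASP8 rose at 5 of its 8 probe sets. Its probe set 11749790_a_at stood at 1.66, 1.26 and 1.34 on the GNPs-HDM2 arrays, at -0.10, -0.15 and -0.05 on the GNPs arrays and at 0.05, -0.05 and 0 on the Control arrays. The GNPs-HDM2 arrays lay well above all others and close to each other. The difference from Control was 1.42 (SE 0.18, n = 3 arrays per group here and below; limma adjusted p = 0.00108), and 0.93 after centring by level (adjusted p = 0.00508). The call held in all 16 other settings in which this probe set was tested. Probe set 11742324_a_at rose by 1.49 (SE 0.29, adjusted p = 0.00433) and stood at 1.0 after centring (adjusted p = 0.00692). Both of these sets were in the lowest level class.

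In the middle level class, CASP8 probe set 11754153_x_at read 1.48, 1.18 and 0.66 with the conjugate, -0.46, -0.16 and -0.47 with bare particles, and 0, 0.41 and -0.08 in Control. Its groups did not overlap either, and the rise of 1.0 (SE 0.25, adjusted p = 0.011) became 0.88 after centring (adjusted p = 0.0153). Probe sets 11728978_x_at and 11762810_x_at rose by 1.03 and 0.69, and these 2 calls were lost after centring (0.54 and 0.20). The remaining 3 sets had differences of 0.32 to 0.54 and did not pass. As the mean of its 8 probe sets, CASP8 averaged 0.84 ± 0.13 in GNPs-HDM2 and -0.02 ± 0.11 in Control (SD, n = 3 each). That is 1.82-fold higher (log2 difference 0.86, adjusted p = 0.00267), in a fit of 18132 genes where 33.1% rose and 25.1% fell. Probe sets of 1 gene share their RNA samples and are not replicates of each other. In bulk cultures, fewer cells with a transcript and less transcript per cell cannot be told apart.

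CFLAR, the inhibitor that lies 56775 bases from CASP8 on chromosome 2, gave mixed probe sets. Of its 9, 3 rose and 6 did not pass, with differences of -0.44 to 0.52 among those that did not. Probe set 11763231_at, whose suffix marks probes meant to be unique, read 1.78, 1.99 and 0.73 with the conjugate, -0.07, -0.06 and 0 with bare particles, and 0.36, -0.15 and 0.11 in Control. All GNPs-HDM2 arrays were above all others, with replicate 3 the lowest of them. The rise was 1.39 (SE 0.31, adjusted p = 0.00707), and 0.91 after centring (adjusted p = 0.0111). Quantile normalization took it to 0.75, which did not pass (adjusted p = 0.1). All 3 rising sets, 11763231_at included, were in the lowest level class. The other rises, 0.69 for 11746300_x_at and 0.68 for 11752428_x_at, were lost after centring (0.21 and 0.20). The mean over the 9 probe sets was 0.46 ± 0.20 in GNPs-HDM2 and 0.02 ± 0.10 in Control, a difference of 0.44 (SE 0.15, adjusted p = 0.0324). That call on the mean was kept in 2 of 18 other settings, and centring by level took it to 0.08 (adjusted p = 0.58).

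APAF1, the scaffold of the apoptosome, had positive differences at all 4 probe sets, of which 2 passed. Probe set 11742201_a_at read 1.02, 1.87 and 0.72 with the conjugate, -0.39, 0.04 and -0.31 with bare particles, and 0.41, 0 and -0.11 in Control. The conjugate arrays lay above all others, while GNPs and Control arrays overlapped, and the conjugate arrays spread over more than 1 log2 unit. Its rise was 1.10 (SE 0.30, adjusted p = 0.0153), and centring by level left 0.62, which did not pass (adjusted p = 0.0579). Probe set 11741241_a_at rose by 0.92 (SE 0.29, adjusted p = 0.027) and still passed after centring, at 0.80 (adjusted p = 0.039). It was in the middle level class, and 11742201_a_at was in the lowest. The other 2 sets had differences of 0.67 and 0.68. The gene mean was 0.86 ± 0.61 in GNPs-HDM2 and 0.01 ± 0.13 in Control, a difference of 0.84 (SE 0.26, adjusted p = 0.023). Leaving out GNPs-HDM2 replicate 1 or 2, or Control replicate 2 or 3, ended this call, with adjusted p = 0.0557 to 0.0744, and without GNPs-HDM2 replicate 2 the difference was 0.55.

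CASP9, which APAF1 activates, had the smallest difference of the gene means. Probe set 11741401_a_at read 0.71, 0.96 and 0.65 with the conjugate, -0.15, -0.17 and -0.12 with bare particles, and 0.31, 0.19 and -0.01 in Control. The groups were apart, and the rise was 0.61 (SE 0.18, adjusted p = 0.0219), or 0.49 after centring (adjusted p = 0.0323). Leaving out Control replicate 2 or 3 ended the call (adjusted p = 0.0629 and 0.0808), and quantile normalization took the difference to 0.09. The other probe set, 11748782_a_at, read -0.65, 0.05 and 0 with the conjugate, -0.08, -0.17 and 0.04 with bare particles, and -0.36, -0.30 and -0.58 in Control. Those groups overlapped, and the difference of 0.21 (SE 0.22) did not pass. The gene mean differed by 0.41 (95% interval 0.04 to 0.78, adjusted p = 0.0574).

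CASP6, the executioner in the set, rests on 1 single-symbol probe set, 11736215_x_at, whose suffix warns of probes that may match other transcripts. It read -1.95, -3.23 and -1.26 with the conjugate, 0.25, 0.32 and 0.11 with bare particles, and -1.41, -0.52 and 0.07 in Control. Control replicate 1 lay below GNPs-HDM2 replicate 3, so the groups overlapped. CASP6 fell by 1.52 (SE 0.48, adjusted p = 0.0268), and stood at -1.64 after centring (adjusted p = 0.0266). The call ended without GNPs-HDM2 replicate 1 or 2 and without Control replicate 2 or 3 (adjusted p = 0.0616 to 0.103), and without GNPs-HDM2 replicate 2 the difference was -0.98. Quantile normalization took the difference to -0.08 (adjusted p = 0.92). A pair of probe sets annotated to both CASP6 and its neighbour PLA2G12A were not members. One of them, 11728278_at, read -3.30, -3.63 and -0.87 with the conjugate, 0, 0.24 and 0.27 with bare particles, and -0.50, 0.11 and -0.03 in Control, where the conjugate arrays lay below all others. The other, 11728279_at, read -1.88, -1.26 and -0.38 with the conjugate, 0.26, 0.22 and 0.21 with bare particles, and -0.68, 0.07 and -0.08 in Control. There Control replicate 1 lay below GNPs-HDM2 replicate 3, as it did in the member probe set.

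XIAP, the direct caspase inhibitor, had the deepest difference among the members. Probe set 11725699_at read -2.58, -3.36 and -1.19 with the conjugate, 0.03, 0 and 0.14 with bare particles, and 0.07, 0.43 and -0.08 in Control. Every conjugate array was more than 1 log2 unit below every other array, with replicate 3 the least so. The difference was -2.52 (SE 0.44, adjusted p = 0.00312). Centring by level left -1.36 (adjusted p = 0.00174), and the call held in all 17 other settings. The other 2 XIAP sets of the highest level class, 11725700_s_at and 11755086_x_at, fell by 1.88 and 1.34 and did not pass after centring (-0.73, adjusted p = 0.0562, and -0.19, adjusted p = 0.44).

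The XIAP probe sets of lower level did not pass as deposited. In the middle class, 11725698_x_at read 0.38, 0.45 and 0 with the conjugate, -0.59, -0.34 and -0.64 with bare particles, and 0.70, -0.31 and -0.32 in Control, a difference of 0.25. In the lowest class, 11757039_a_at differed by -0.30, although after centring it passed as lower, at -0.78 (adjusted p = 0.0156). The XIAP mean was -1.12 ± 0.63 in GNPs-HDM2 and 0.04 ± 0.13 in Control, a difference of -1.16 (SE 0.27, adjusted p = 0.00766) that became -0.58 after centring (adjusted p = 0.0116).

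BIRC2, the cIAP1 ligase, fell at 2 of its 5 probe sets. In the middle class, 11750887_a_at read -0.93, -0.65 and -0.93 with the conjugate, 0.34, 0.30 and 0.04 with bare particles, and 0.12, -0.20 and 0 in Control. The conjugate arrays were alike and below all others, the difference was -0.81 (SE 0.19, adjusted p = 0.00893), and centring made it -0.93 (adjusted p = 0.00318). This call ended with quantile normalization (-0.35, adjusted p = 0.463) and with a weight per group (adjusted p = 0.0696). In the highest class, 11757937_s_at read -2.84, -3.35 and -0.47 with the conjugate, 0.34, 0.29 and 0.10 with bare particles, and -0.15, -0.03 and -0.02 in Control. The groups were again apart, but replicate 3 was much nearer to Control than the other conjugate arrays, and the difference of -2.15 (SE 0.58, adjusted p = 0.015) became -1.0 after centring (adjusted p = 0.0339). The 3 other sets differed by -0.43, -0.23 and -0.07 and did not pass. The second set of the highest class, 11717628_a_at, stood at -0.23 as deposited and at 0.92 after centring (adjusted p = 0.0996), so the BIRC2 probe sets of that class did not move alike. The gene mean was -0.82 ± 0.11 in GNPs-HDM2 and -0.08 ± 0.05 in Control, a difference of -0.74 (SE 0.14, adjusted p = 0.00417) that did not pass after centring (-0.35, adjusted p = 0.0554). Its single probe sets spread more on the GNPs-HDM2 arrays than this mean, with SDs of 0.17 to 1.53. With 11757937_s_at left out of the mean, the difference was -0.39 and did not pass (limma adjusted p = 0.0752).

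**Figure D2:**
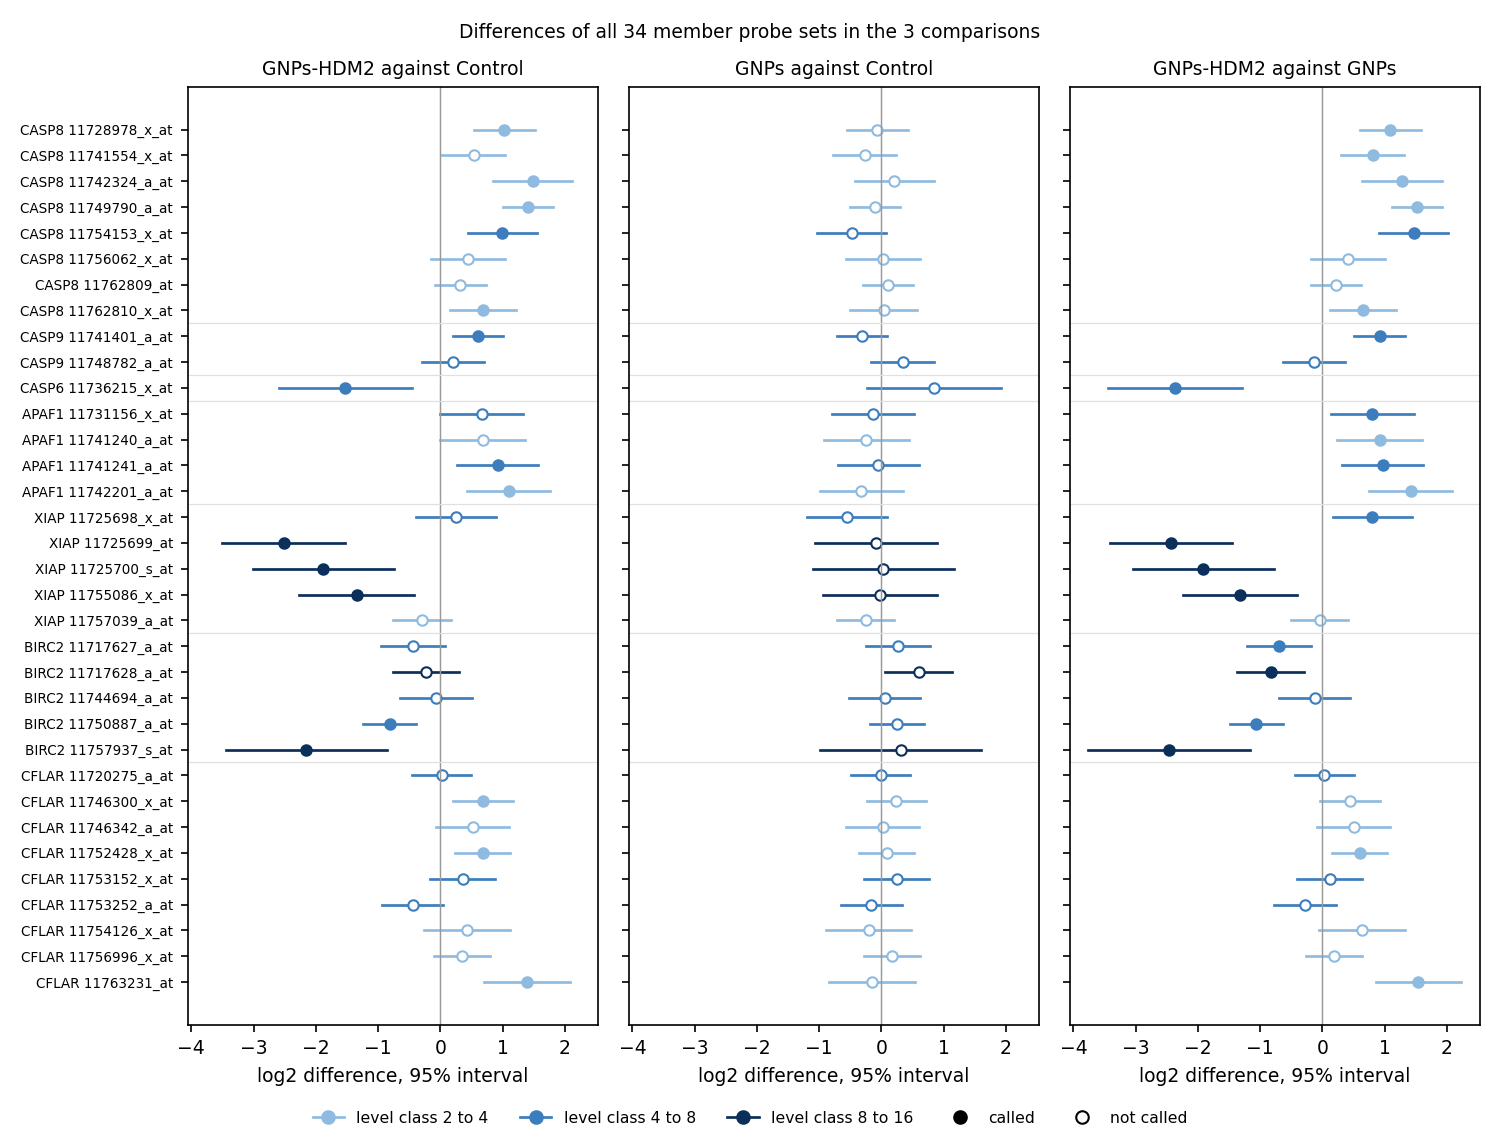
Log2 difference (horizontal axis, points with 95% intervals from the limma fit) of all 34 member probe sets, grouped by gene, in the 3 comparisons. Filled points passed at adjusted p under 0.05 and shade gives the level class. Calls appear on both sides of 0 in both panels that hold the conjugate, and none appears for GNPs against Control.

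As gene means, then, 3 members rose (CASP8, APAF1 and CFLAR), 3 fell (BIRC2, XIAP and CASP6) and CASP9 did not pass, in a comparison where 58.3% of all genes passed. Without GNPs-HDM2 replicate 2, Control replicate 2 or Control replicate 3, 1 gene mean was called higher. After centring by level, CASP8 was the 1 gene mean still called higher (0.43, adjusted p = 0.0204), and XIAP and CASP6 were those still called lower. Quantile normalization, which forces all arrays to 1 distribution, left no gene mean called, and at the probe sets it left 3 higher and 1 lower. The shares of all genes and probe sets called under quantile normalization were not counted. Under it CASP8 11749790_a_at stayed at 0.91 (adjusted p = 0.0405) and XIAP 11725699_at at -1.39 (adjusted p = 0.009).

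**Figure D3:**
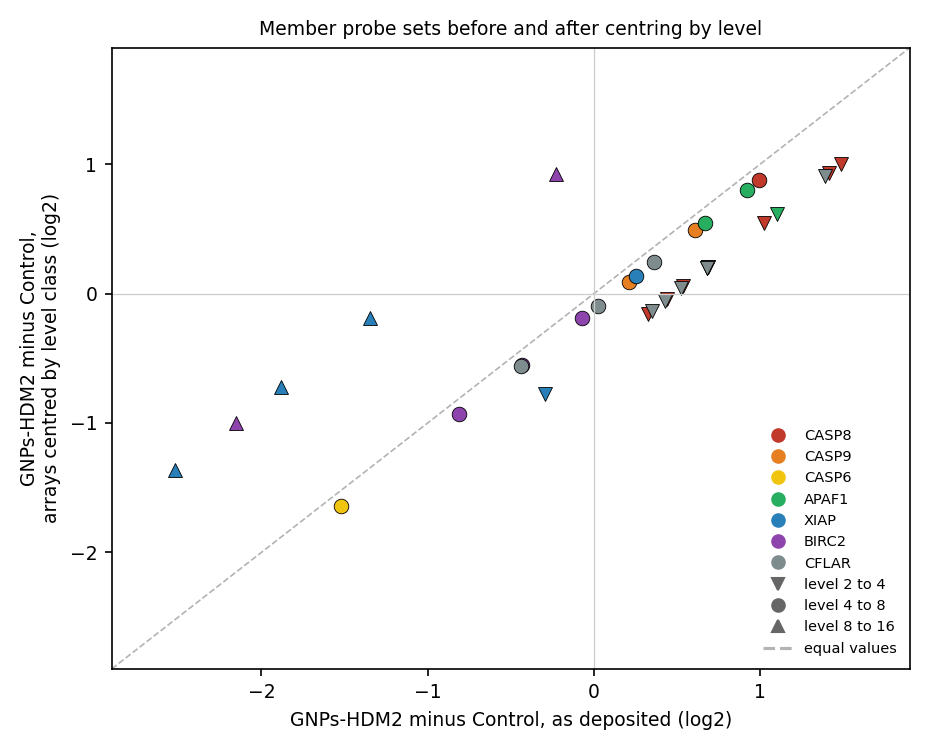
GNPs-HDM2 minus Control for each member probe set (log2) as deposited (horizontal axis) and after arrays were centred by level class (vertical axis), with colour for the gene and marker shape for the level class. Sets of the highest class lie above the dashed line of equal values and the others lie below it. XIAP 11725699_at is at -2.52 and -1.36, and 6 of the 34 sets change sign, none of them called as deposited, with BIRC2 11717628_a_at at -0.23 and 0.92.

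Bare particles gave no call, in a fit whose 1 spread takes in the more variable GNPs-HDM2 arrays. None of the 34 member probe sets passed in GNPs against Control, where 0.00811% of all probe sets did (4 probe sets, all higher). The members' differences ran from -0.55 to 0.85 with a median of 0.01, against -0.04 over all probe sets. At an unadjusted p under 0.05, where the share of all probe sets was not counted, there was 1 member, BIRC2 11717628_a_at. It read 0.29, 0.51 and 0.39 with bare particles and -0.52, 0 and -0.09 in Control. These groups did not overlap, and the difference was 0.60 (SE 0.24, unadjusted p = 0.0319, adjusted p = 0.971). Under quantile normalization the same probe set passed, at 1.04 (adjusted p = 0.038). With only the 2 groups fitted its SE was 0.16 (limma adjusted p = 0.138). With a weight per group its SE was 0.15 (limma adjusted p = 0.057). No member probe set passed in either of those 2 settings. The largest difference was that of CASP6, 0.85 with an SE of 0.48, where the Control arrays spread over more than 1 log2 unit. On 4 member probe sets the GNPs arrays lay above all Control arrays and on 5 below them, against 11.5% and 17.4% of all probe sets. As gene means, the 95% interval of the difference was -0.39 to 0.26 for CASP8, -0.77 to 0.42 for XIAP and -0.02 to 0.62 for BIRC2, so changes of such sizes could have been missed.

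The comparison of the conjugate with the bare particle uses the same GNPs-HDM2 arrays as the comparison with untreated cells. Of the 34 member probe sets, 14 rose, 8 fell and 12 did not pass, which is 64.7% called against 64.6% of all probe sets (36.3% higher, 28.3% lower). The rises numbered 8 without GNPs replicate 1 and 9 without GNPs-HDM2 replicate 2, GNPs replicate 2 or GNPs replicate 3, and the falls numbered 5 without GNPs replicate 2. The members' median was 0.43, against 0.29 over all probe sets. The GNPs-HDM2 arrays lay above all GNPs arrays on 16 member probe sets and below them on 8, against 41.2% and 29.7% of all probe sets. All 4 APAF1 probe sets rose, by 0.80 to 1.42, and 6 of 8 CASP8 sets did. The smallest p was that of CASP8 11749790_a_at, 1.52 higher (SE 0.18, adjusted p = 4.35e-04). CASP9 11741401_a_at rose by 0.92 (adjusted p = 0.00274) and CFLAR 11763231_at by 1.54 (adjusted p = 0.00283), with 1 further CFLAR set called higher.

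Among the inhibitors set against bare particles, 4 of 5 BIRC2 probe sets fell, with differences of -2.46 for 11757937_s_at to -0.70 for 11717627_a_at. XIAP fell at the 3 sets of the highest level class, with 11725699_at at -2.43 (adjusted p = 0.00197). XIAP 11725698_x_at went the other way, 0.80 higher (SE 0.29, adjusted p = 0.0323), so the XIAP probe sets disagreed in direction. CASP6 fell by 2.37 (SE 0.48, adjusted p = 0.00304), here with the groups apart. After centring by level 7 members stood higher and 6 lower, against 25.2% and 23.8% of all probe sets. As gene means, CASP8, APAF1 and CFLAR rose and BIRC2, XIAP and CASP6 fell, while CASP9 did not pass (0.40, adjusted p = 0.0548), where 72.3% of all genes passed (43.2% higher, 29.1% lower).

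Genes whose profile over the 9 arrays was closest to that of the highest and the lowest member mean were found by root mean square distance, each gene set to a Control mean of 0. For CASP8 these were ITPRIPL2, BCL3 and EPS8L2, each at a distance of 0.05 log2 units. For CASP6 they were TIGD2 at 0.21, FAHD1 at 0.23 and ARV1 at 0.24. CASP6 therefore had no gene as near to it as CASP8 had, but these distances are not scaled to a gene's spread. On GNPs-HDM2 arrays the SD was 1.0 for CASP6, from 1 probe set, and 0.13 for CASP8, from 8.

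The rest of the pathway was read as gene means in GNPs-HDM2 against Control, where the median of all genes was 0.25 and that of the 7 measured members 0.41. Of all genes 33.1% were called higher and 25.1% lower, the shares against which each list's counts as deposited stand. Shares of all genes after centring by level were not counted, so centred counts of gene means have no such share beside them. Over probe sets, not genes, the centred shares were 18.3% higher and 19.1% lower. Of 6 measured other caspases 4 rose, 1 fell and 1 did not pass (median 0.39). After centring by level 1 of them was called higher and 1 lower, and the median was -0.09. The rises were CASP14 of skin cornification at 0.81 (adjusted p = 0.0172), CASP10, the close relative of CASP8, at 0.47 (adjusted p = 0.0273), and the inflammatory CASP4 and CASP1 at 0.40 and 0.38 (adjusted p = 0.0444 and 0.0493). CASP5 differed by 0.28 (adjusted p = 0.119), and CASP2, the initiator that the PIDDosome activates, fell by 0.57 (adjusted p = 0.0234).

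Of the 4 other IAPs, NAIP of the inflammasome rose by 0.87 (adjusted p = 0.0152), BIRC7 (livin) rose by 0.48 (adjusted p = 0.0449), the giant BIRC6 fell by 1.79 (adjusted p = 0.00169), and survivin, BIRC5, differed by -0.45 (adjusted p = 0.0538). Their median was 0.01, and 0.12 after centring, with 1 called higher and 1 lower. Of the 6 IAP antagonists and apoptosome partners, 3 fell and 1 rose (median -0.80). CYCS, cytochrome c itself, fell by 0.96 (adjusted p = 0.0229) and HTRA2, a mitochondrial protease that binds IAPs, by 0.98 (adjusted p = 0.0239), together with DIABLO. XAF1, which binds XIAP, rose by 0.76 (adjusted p = 0.00874). After centring by level that list held 1 call, higher, with a median of 0.17.

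Among 13 measured genes of the death receptor complex, the platform on which CASP8 and CFLAR act, 8 rose and none fell (median 0.61), against 33.1% and 25.1% of all genes, with the decoy receptor TNFRSF10C at 0.96 (adjusted p = 0.00444) and the TNF receptor TNFRSF1A at 0.88 (adjusted p = 0.00355). After centring 4 of the 13 passed as higher, with a median of 0.37. RIPK1 and TRAF2 were not analysed here. Of 7 caspase substrates 5 fell and 1 rose (median -0.75, and -0.54 after centring with 4 lower). PARP1 fell by 2.25 (adjusted p = 0.00531) and the lamin LMNB1 by 2.01 (adjusted p = 0.00401), while LMNA, the lamin that CASP6 cleaves, rose by 0.74 (adjusted p = 0.0122). No gene of any of these lists, nor any member as a gene mean, passed in GNPs against Control, where 0.0221% of all genes did.

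**Figure D4:**
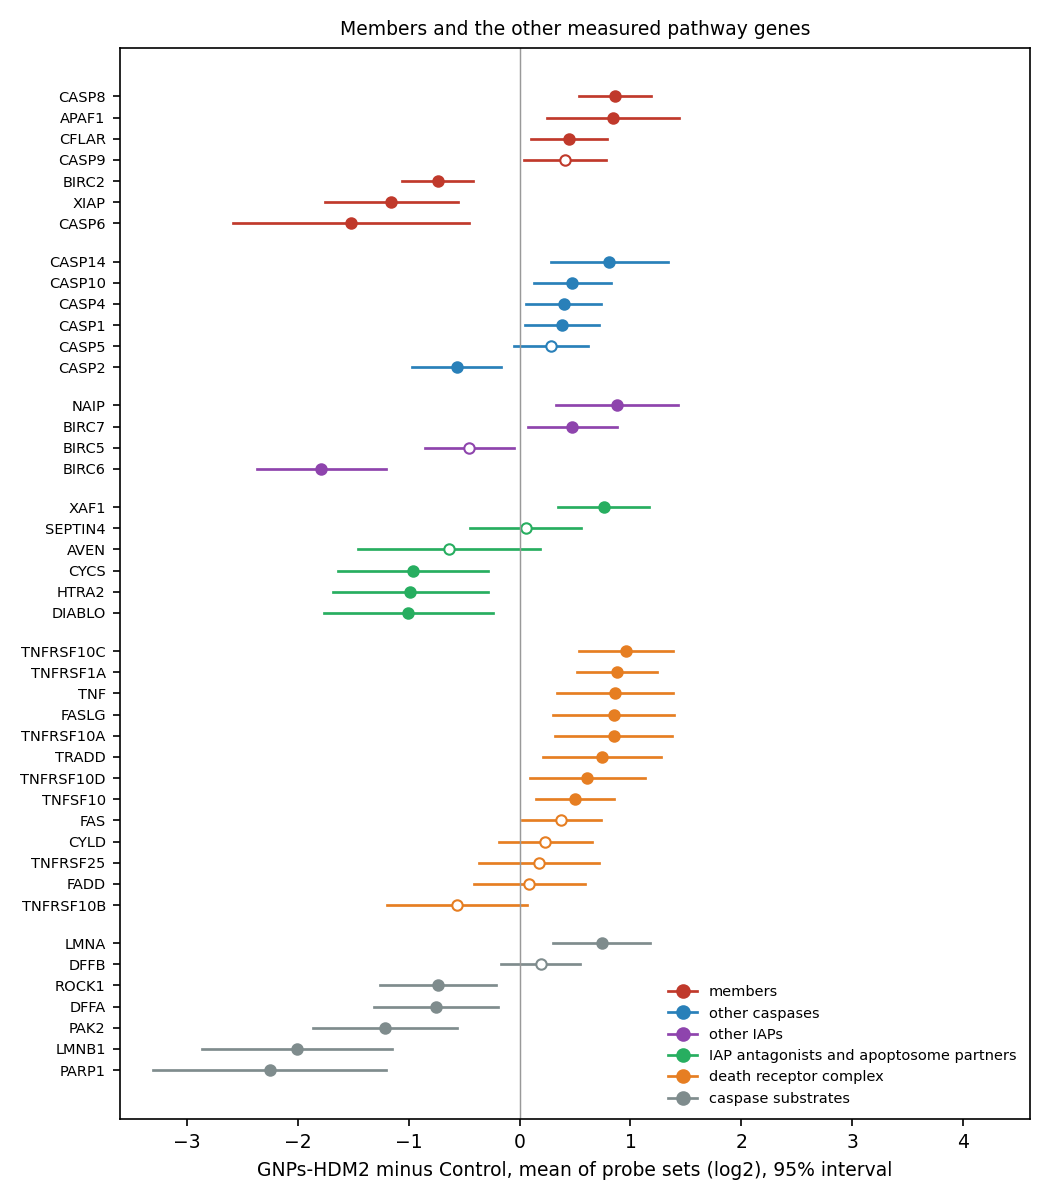
GNPs-HDM2 minus Control (log2, horizontal axis) as the mean of each gene's probe sets, with 95% intervals from the limma fit. Rows are genes, colours are the lists, and filled points passed at adjusted p under 0.05. The members run from CASP8 at 0.86 to CASP6 at -1.52, and among the death receptor genes 8 of 13 passed, all of them higher.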

How the data were processed

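Biotin-labelled cRNA was made from total RNA by the array maker's protocol, per the labels' protocols. No source used here names the summarisation tool. The deposited log2 values are differences from an unstated baseline that varies by probe set, and for 59.69% of those tested some array reads exactly 0. Base 2 was assumed. The number of arrays limits precision. The 102 array controls were left out and 49293 probe sets were tested, of which 44988 had 1 gene symbol in the platform annotation, 1832 several and 2473 none. Step sizes of the stored numbers gave level classes for 16150, 23150 and 8483 probe sets from low to high, and 1510 were not classed. No arrays were alike enough to be 1 sample.

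All 9 arrays entered 1 limma fit (lmFit and eBayes, two-sided, limma 3.58.1 in R 4.3.3, with version 1.17.8 of data.table). P-values were adjusted by Benjamini-Hochberg over all probe sets, or over 18132 genes for the means of single-symbol probe sets. The level classes were checked on simulated numbers. The limma fit takes 1 spread for all groups. Values on all arrays are given for each member's probe set of smallest p, and pathway genes were named by smallest adjusted p in lists. Some further probe sets were named after their values were seen. Members and lists were chosen with earlier results of these data known. Alternatives were quantile, median and level-class centring, arrayWeights per group, trend and robust moderation, fits of 2 groups, leaving out each array, a replicate block, a level filter and the median of probe sets. Leaving _x_at and _s_at sets out of gene means was chosen after seeing the data.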

Additional observations from a re-analysis of the deposited data

Results flagged for a closer look

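Signals of array controls that were not part of any comparison differed between groups. The 18 hybridization control probe sets, which read bacterial transcripts added to the labelled sample, stood 2.06 log2 units higher, at 1.88, 1.83 and 1.33 on GNPs-HDM2 arrays against -0.40, -0.43 and -0.32 on Control arrays. The 27 poly-A control probe sets stood 1.72 higher, at 1.34, 1.43 and 0.72 on GNPs-HDM2 arrays against -0.40, -1.22 and -0.05 on Control arrays. Neither kind of control overlapped between the groups. Their part in the members' differences was not tested.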

How the results depend on the processing

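Of the 274 alternative values of the gene means and of the probe sets with the smallest p, none reversed direction, 216 kept their side of the threshold, 55 lost the call and 3 gained it. Many of these could not reverse, because the replicate block, group weights, moderation, 2-group fits and level filter keep each difference unchanged. Leaving out an array of the group not compared keeps it too. CASP6 entered both as its probe set and as its gene mean, with the same differences. Over all 34 member probe sets, level centring turned the sign of 6 in GNPs-HDM2 against Control, none of them called as deposited (2 of CASP8, 3 of CFLAR and BIRC2 11717628_a_at). In GNPs-HDM2 against Control, the 11 probe sets called higher became 3 after quantile normalization, 6 after level centring, 6 with only the 2 groups fitted, 4 with arrayWeights and 3 with level 4 to 16 alone, where 18 of the 34 members were tested. The 6 called lower became 1 after quantile normalization. Leaving out 1 array gave 6 to 16 higher (6 without Control replicate 2 or 3) and 2 to 7 lower (2 without GNPs-HDM2 replicate 1, 3 without Control replicate 2). Of 3 gene means higher, 0 were left by quantile normalization, 1 by level centring, 1 with 2 groups fitted and 1 to 3 by leaving out 1 array (1 without GNPs-HDM2 replicate 2 or Control replicate 2 or 3). Of 3 lower, 0 were left by quantile normalization and 2 to 3 by leaving out 1 array. Without _x_at and _s_at sets 1 was left, BIRC2 did not pass, and CASP6 then had no probe set. In GNPs against Control, quantile normalization gave 3 probe sets higher and 1 lower, and 2 gene means higher, where the fit as deposited gave 0, and leaving out 1 array gave 0 throughout. Except for level centring, shares of all probe sets were not counted under the alternatives, so these member counts have no such share beside them. In GNPs-HDM2 against GNPs, the 14 higher became 7, 7, 9 and 5 under quantile normalization, level centring, arrayWeights and level 4 to 16 alone. Leaving out 1 array gave 8 to 17 higher (8 without GNPs replicate 1, 9 without GNPs-HDM2 replicate 2 or GNPs replicate 2 or 3) and 5 to 8 lower (5 without GNPs replicate 2), with 2 to 3 gene means higher and 3 lower. Same-numbered arrays deviated together at r = -0.03 to 0.23. Differently numbered arrays were not set beside them, so whether the numbers mark a shared batch or culture was not tested. With the replicate block 10 probe sets were higher and 6 lower in GNPs-HDM2 against Control, and CFLAR was the 1 gene mean that lost its call (0.44, adjusted p = 0.0549). The cause of these changes was not tested.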
